A study of Mus musculus with 13 samples.

Results

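The 47 genes described here encode the machinery of DNA replication and its S-phase supply. They were a fixed list of mouse symbols matched to the gene rows of the count table, so all 47 were found among 53379 rows, and all 47 were among the 19984 genes that passed the filter on low counts. The samples were CD45- thymic stroma from 2-month-old C57BL/6 mice, depleted of CD45+ cells on magnetic beads and then sorted. There were 4 libraries at steady state, from PBS-treated or untreated animals, and 3 libraries for each of 3 collection times after a sublethal dose of total body irradiation (TBI), namely day 1, day 4 and day 7. By their labels the irradiated groups differed only in the day of collection, but their column headings carry unexplained tags that are spread unevenly over the days. Neither the labels nor the methods said whether a library held 1 mouse or a pool of several.

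Replication is prepared in G1, when the origin recognition complex, Cdc6 and Cdt1 load the MCM helicase onto DNA, and it starts when Cdc7-Dbf4 and cyclin E kinase activity bring Cdc45, GINS and Mcm10 to the helicase. Polymerases, the PCNA clamp, its RFC loader and the enzymes that join Okazaki fragments then copy the DNA, while ribonucleotide reductase supplies the building blocks. In the thymus the cells that cycle most are developing thymocytes, which carry CD45 (Ptprc), and stromal cells cycle as well, so the thymocyte genes Rag1 (the recombinase of antigen receptor genes) and Cd3e (a chain of the T cell receptor complex) were followed in the same libraries.

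Promoters are shown first, because E2F factors are known to drive many S-phase genes. RefSeq windows on GRCm38.p6, from 250 bases before a start to 50 after it, were found for 39 of the 47 genes, in 47 windows. The E2F letters searched, TTTCGCGC or TTTGGCGC on either strand, were present in at least 1 window of 13 of these 39 genes (33.3%), against 251 of 27025 genes with a window (0.929%). By window, 13 of 47 (27.7%) held them, against 0.813% of all 32851. The 13 genes were licensing and helicase genes (Orc1, Cdt1, Mcm3, Mcm5, Mcm6, Mcm7), polymerase and clamp loader genes (Pola1, Pole2, Rfc3), Lig1, Uhrf1, Dnmt1 and Clspn. The CCAAT letters were in a window of 22 of the 39 genes (56.4%), against 41.1% of all genes, and the CHR letters TTTGAA, known from mitosis genes, in 7 of 39 (17.9%), against 20.2%. A match is a description of the letters, and none of these shares was tested. Shown here are the windows of the 3 genes with the largest difference between day 7 and day 4 (Clspn, Mcm10 and Rrm2), of Orc1, of Mcm6, which held the most matches, and of Pole2, which held a match but differed little between days 7 and 1. They run from 250 bases before the start through the first 30 transcribed bases, with E2F letters in capitals, and lie at Clspn chr4:126556730-126557009 on the plus strand, Mcm10 chr2:5012762-5013041 on the minus strand, Rrm2 chr12:24708004-24708283 on the plus strand, Orc1 chr4:108579204-108579483 on the plus strand, Mcm6 chr1:128359676-128359955 on the minus strand and Pole2 chr12:69228161-69228440 on the minus strand.
Clspn: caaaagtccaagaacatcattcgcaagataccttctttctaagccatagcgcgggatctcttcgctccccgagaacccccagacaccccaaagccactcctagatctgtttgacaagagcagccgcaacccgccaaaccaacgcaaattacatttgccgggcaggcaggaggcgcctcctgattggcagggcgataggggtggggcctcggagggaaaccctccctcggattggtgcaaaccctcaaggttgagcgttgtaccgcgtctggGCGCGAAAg
Mcm10: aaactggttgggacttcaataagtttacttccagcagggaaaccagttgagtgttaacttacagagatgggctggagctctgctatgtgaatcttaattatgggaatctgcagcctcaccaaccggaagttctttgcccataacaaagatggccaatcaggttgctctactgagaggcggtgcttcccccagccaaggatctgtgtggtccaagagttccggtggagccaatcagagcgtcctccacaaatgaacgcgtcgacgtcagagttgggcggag
Rrm2: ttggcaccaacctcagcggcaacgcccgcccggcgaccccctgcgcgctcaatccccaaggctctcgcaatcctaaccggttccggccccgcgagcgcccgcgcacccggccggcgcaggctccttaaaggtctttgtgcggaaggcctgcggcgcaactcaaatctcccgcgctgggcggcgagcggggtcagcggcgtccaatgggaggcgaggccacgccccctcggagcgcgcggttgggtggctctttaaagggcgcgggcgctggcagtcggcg
Orc1: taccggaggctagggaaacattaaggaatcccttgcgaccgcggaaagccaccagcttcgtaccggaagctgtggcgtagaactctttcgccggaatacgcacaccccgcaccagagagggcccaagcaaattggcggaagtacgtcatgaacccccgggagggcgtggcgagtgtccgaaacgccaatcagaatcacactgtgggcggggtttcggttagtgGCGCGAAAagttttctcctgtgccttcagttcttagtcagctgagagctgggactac
Mcm6: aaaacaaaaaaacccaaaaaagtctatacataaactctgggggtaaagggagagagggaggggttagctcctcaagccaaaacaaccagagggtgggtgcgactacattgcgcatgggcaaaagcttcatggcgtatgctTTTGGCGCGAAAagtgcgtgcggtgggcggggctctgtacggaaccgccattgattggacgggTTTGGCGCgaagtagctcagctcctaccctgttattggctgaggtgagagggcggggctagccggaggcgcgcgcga
Pole2: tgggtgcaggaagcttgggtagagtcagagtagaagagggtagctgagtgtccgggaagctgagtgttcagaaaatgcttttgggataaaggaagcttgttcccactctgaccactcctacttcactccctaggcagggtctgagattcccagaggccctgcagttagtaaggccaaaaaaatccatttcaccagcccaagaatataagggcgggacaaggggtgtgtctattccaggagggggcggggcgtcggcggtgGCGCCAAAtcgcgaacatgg
In Mcm6 the capitals cover 3 matches, 2 of which overlap on opposite strands, and Mcm10 and Rrm2 held none. The E2f1 window, counted among those without the letters, starts 466 bases inside the outermost start of E2f1 in the count table and so may miss its promoter.

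Total counts ran from 15721866 to 52056896 per library. Values are counts per 1000000 (CPM) on normalized library sizes, and a library's list score is its mean log2(CPM + 0.5) over the genes of a list. Thymic epithelial genes (8, summed 539 to 2699 CPM), endothelial genes (5, 582 to 985 CPM) and fibroblast genes (6, 14698 to 108056 CPM) were detected in all conditions. Leukocyte transcripts were present too, with Ptprc from 4.07 to 606 CPM. Replicate 1 of day 1, together with 2 day-4 libraries (replicates 2 and 3), stood apart from the other libraries of their days in the same genes: 2058 of 14590 genes (14.1%) were lower in them by over 1 on the log2 scale on both days. Of the replication genes 4 (8.51%: Dbf4, Dut, Chaf1a and Ccne1) met this. The heading tags of these 3 libraries open with k3 or kk, and those of the other day-1 and day-4 libraries do not. All day-7 tags open with k3 or kk. Replicate 1 of day 7 also stood apart from the other 2 libraries of its day, as described below. Adjusted p-values come from edgeR's quasi-likelihood test over all 19984 genes, with a gene called at 0.05 or less. They weigh the difference between groups against the spread between these libraries, which may be technical.

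At steady state the highest levels per kilobase of exon were those of helicase and clamp genes. Mcm6, a subunit of the MCM ring, had a mean of 19.1 CPM per kb, Mcm4 16.3 and the clamp gene Pcna 14.3, followed by Tipin, a fork protection factor, at 11.7. The lowest were Clspn, the adaptor of the Chk1 checkpoint, at 0.19 CPM per kb, and Fen1, the flap endonuclease of lagging strand synthesis, at 0.263. The levels of Fen1 and Gins2 are uncertain, since 84.2% of the exonic bases of Fen1 and 67.3% of those of Gins2 also lie in exons of genes on the opposite strand. Another 7 genes shared over 10% of their exonic bases with other genes (Chaf1a, Ccne2, Rfc2, Mcm7, Rfc4, Orc1 and Rfc5). The PBS library named for day 4 was the highest of the 4 steady-state libraries in 37 of the 47 genes. Its replication score was 4.07, against 3.39 to 3.70 in the other 3, while its thymocyte score of 4.00 was the lowest of the 4 and the others had 4.14 to 5.60. The same library had the highest mitosis score (3.97, others 2.7 to 3.55) and fibroblast score (11.9, others 10.01 to 11.6). Its thymic epithelial score was the lowest (5.50, others 5.72 to 7.34). Also lowest of the 4 were its endothelial (6.48), erythroid (5.21), macrophage (1.34), neutrophil (0.329), B cell (0.144) and Ptprc (4.61) scores. The part of these genes and cell types in its replication score was not tested.

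**Figure D1:**
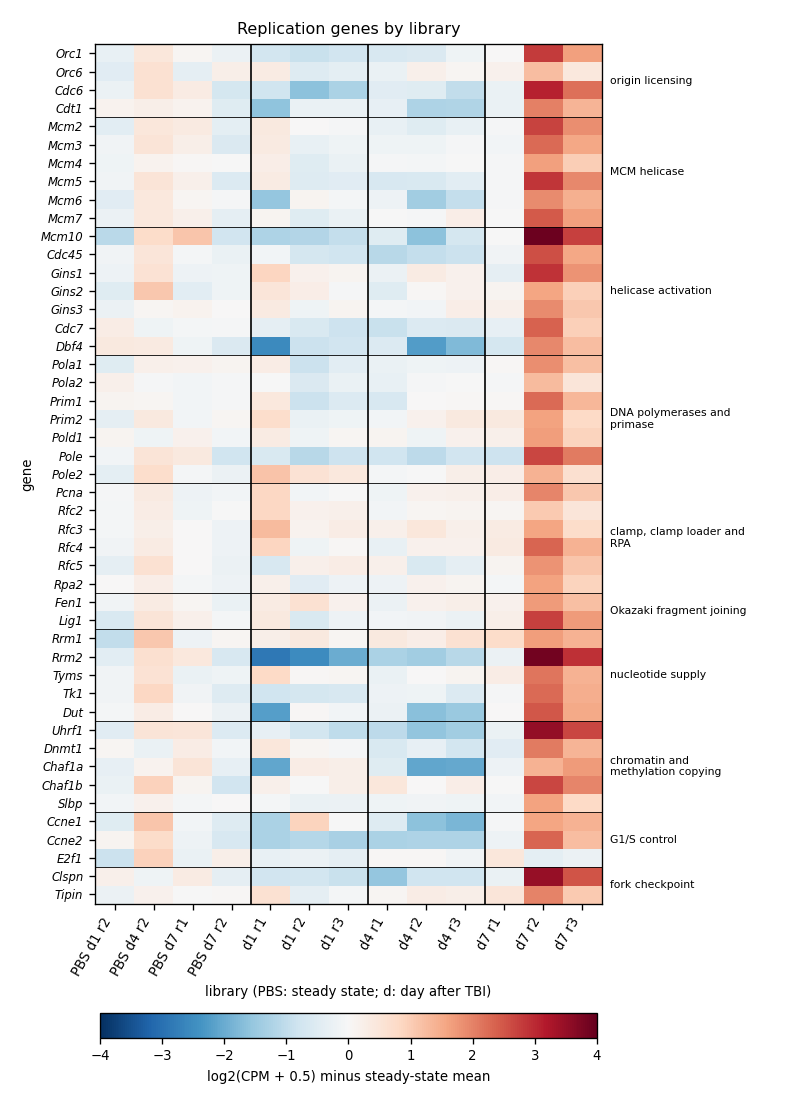
Each row is a replication gene, grouped by role, and each column a library (PBS, steady state, named by the day and replicate in its column heading; d, day after TBI; r, replicate). Colour gives log2(CPM + 0.5) minus the mean of the 4 steady-state libraries, from -4 (blue) to 4 (red). Replicates 2 and 3 of day 7 are red in nearly every row, E2f1 excepted, and replicate 1 of day 7 is close to steady state.

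At day 1 after TBI no replication gene passed the test against steady state in either direction, while 1.68% of all genes were called higher and 0.671% lower. An unadjusted p under 0.05 was reached by 4 of the 47, against 17.2% of all genes, and DESeq2 called 1 lower and 0 higher. The median log2 fold change of the 47 was -0.20 and that of all genes -0.10, with 30 genes negative and 17 positive. The list was not uniform, since 8 genes were below all 4 steady-state libraries in all 3 day-1 libraries (Orc1, Cdc6, Cdc7, Dbf4, Rrm2, Tk1, Ccne2 and Clspn), as were 8.56% of all genes. None of the 8 was a subunit of the MCM ring, a DNA polymerase or a clamp gene. They act in origin licensing and firing, in nucleotide supply and in the checkpoint. Other genes of those roles did not meet this, Orc6, Cdt1, Cdc45, Rrm1 and Tipin among them.

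Rrm2, the regulated subunit of ribonucleotide reductase, was the lowest of those 8 genes by fold change. It had 17.4, 37.0, 31.3 and 14.8 CPM at steady state and 2.77, 3.67 and 5.51 CPM in replicates 1 to 3 of day 1. The groups did not overlap, and the log2 fold change was -2.65 ± 0.70 (SE; edgeR adjusted p = 0.0713). Its partner Rrm1, the large subunit, had 48.8, 206, 83.0 and 103 CPM at steady state and 112, 127 and 101 CPM on day 1, all inside the steady-state range. Mcm10, which activates the helicase, had 0.724, 3.83, 5.01 and 1.02 CPM at steady state and 0.594, 0.65 and 0.838 CPM on day 1. Its steady-state libraries spread so widely that the lowest of them fell among the day-1 values (log2 fold change -1.93 ± 0.90, edgeR adjusted p = 0.293). For Cdc6, the MCM loader, the values were 4.06, 7.55, 6.18 and 2.76 CPM at steady state and 2.57, 1.21 and 1.72 CPM on day 1, with no overlap (log2 fold change -1.48 ± 0.62, edgeR adjusted p = 0.249).

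The opposite end of the list held Pole2, Rfc3 and Fen1, none of which passed the test. Pole2, an accessory subunit of polymerase epsilon, had 3.2, 7.53, 4.15 and 3.63 CPM at steady state and 10.2, 6.78 and 5.99 CPM on day 1 (log2 fold change 0.73 ± 0.37, edgeR adjusted p = 0.332). Rfc3, a clamp loader subunit, had 7.76, 9.73, 8.33 and 7.12 CPM at steady state and 20.5, 9.01 and 10.3 CPM on day 1. Its highest day-1 value was that of replicate 1, the library that stood apart, and the same library was the highest of its day for Pcna (60.5 CPM against 31.6 and 33.7) and Rfc2 (68.2 CPM against 43.6 and 44.0). Fen1 stayed between 0.754 and 1.21 CPM on day 1 and between 0.436 and 0.9 CPM at steady state. Replicate 1 was above the steady-state range in 16 replication genes and below it in 15, against 1 above in each of replicates 2 and 3, and 22 and 16 below.

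Genes of mitosis, which act after replication in the same cycle, were all negative on day 1, where the replication genes were mixed. The median log2 fold change of the 18 mitosis genes was -2.56, 17 of them were below all steady-state libraries in every day-1 library, and 2 were called lower, Nusap1, a spindle protein (log2 fold change -3.0 ± 0.62, edgeR adjusted p = 0.0209), and Birc5 (survivin), a subunit of the chromosomal passenger complex (-2.97 ± 0.72, 0.0493). Of 40 further replication genes 1 was called lower, the activator E2f2, which had 28.1, 11.2, 35.5 and 12.6 CPM at steady state and 3.42, 2.6 and 3.79 CPM on day 1. Its log2 fold change was -2.74 ± 0.62 (edgeR adjusted p = 0.0369). Among 10 cell cycle inhibitors and pocket proteins only Cdkn1a (p21, a target of p53) was called, and it rose. It had 169, 258, 129 and 217 CPM at steady state and 855, 609 and 559 CPM on day 1, a log2 fold change of 1.80 ± 0.31 (edgeR adjusted p = 0.00694). The 15 thymocyte genes had a median of -2.0 on day 1 with 0 called, and 4 of 11 erythroid genes were called lower; their part in the values of the replication genes was not tested. In this bulk RNA, fewer cells of a type and less RNA per cell cannot be told apart.

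**Figure D2:**
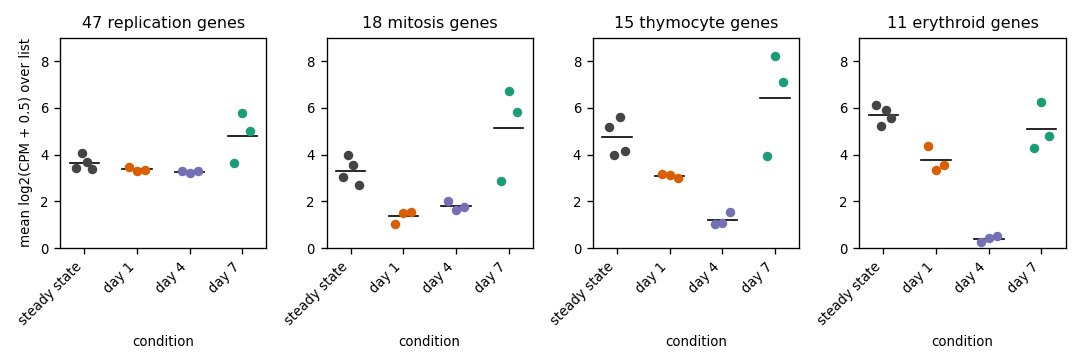
Points are libraries and lines are group means; the vertical axis is the mean log2(CPM + 0.5) over the genes of each list, at steady state and on days 1, 4 and 7 after TBI. Replication scores of days 1 and 4 lie between 3.20 and 3.46, mitosis scores of those days are all below the steady-state libraries, and the thymocyte and erythroid scores are lowest on day 4.

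By day 4 the replication genes were again without a call against steady state, with 0.05% of all genes called higher and 0.24% lower. An unadjusted p under 0.05 was reached by 7 of the 47, against 13% of all genes, and DESeq2 called 0. The median log2 fold change was -0.22, against -0.13 over all genes. Day-4 libraries were below every steady-state library in 10 genes (Cdc45, Cdc7, Rrm2, Uhrf1, Dnmt1, Chaf1a, Slbp, Ccne1, Ccne2 and Clspn), as in 8.22% of all genes. Between days 1 and 4 no replication gene was called, 1 of 47 had an unadjusted p under 0.05 (13.7% of all genes), and DESeq2 called 0. The median log2 fold change between these days was -0.08 against -0.10 over all genes, of which 0.355% were called higher and 1.07% lower. Of the 47, 4 genes (Orc1, Rrm2, Tk1 and E2f1) were higher in every day-4 library than in every day-1 library, where 12.6% of all genes were, and 6 were lower (Mcm2, Cdc45, Pole2, Rfc2, Uhrf1 and Dnmt1), where 13.7% were.

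Rrm2 was the largest difference upward from day 1 to day 4, with 9.42, 8.66 and 10.5 CPM on day 4. All 3 values lay above day 1 and below steady state (log2 fold change over day 1 1.25 ± 0.70, edgeR adjusted p = 0.46). Cdc6 had 3.36, 3.28 and 2.2 CPM and Orc1, the ATPase of the origin recognition complex, 0.645, 0.702 and 1.07 CPM, where day 1 had 0.566, 0.464 and 0.545 CPM. Dnmt1, which copies DNA methylation onto the new strand, went the other way, with 68.6, 53.4, 79.6 and 59.4 CPM at steady state, 88.0, 68.0 and 63.1 CPM on day 1 and 42.3, 51.0 and 38.7 CPM on day 4. The day-4 values overlapped neither group, but the difference from day 1 was not called (-0.73 ± 0.44, edgeR adjusted p = 0.504).

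The largest differences downward from day 1 to day 4 were those of Ccne1 and Chaf1a, and both were genes in which the libraries that stood apart were low. Ccne1, the cyclin that starts S phase, had 0.679, 4.78 and 2.32 CPM on day 1 and 1.48, 0.404 and 0.296 CPM on day 4, so its lowest day-1 value and its lower pair of day-4 values were all in those libraries. Chaf1a, the large subunit of the histone chaperone CAF-1, showed the same split, with 0.764, 6.04 and 5.76 CPM on day 1, 3.36, 0.773 and 0.796 CPM on day 4, and 3.77, 5.45, 7.17 and 3.73 CPM at steady state. Mcm6 showed it in part, with 29.5, 94.5 and 82.8 CPM on day 1 and 75.7, 33.0 and 44.6 CPM on day 4. The other 5 subunits of the MCM ring did not, although they work as 1 complex. Mcm4, for example, had 70.2, 41.8 and 47.9 CPM on day 1 and 56.6, 55.1 and 57.5 CPM on day 4.

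Over the same interval blood cell genes fell, in contrast with the replication genes, of which none was called. Of 15 thymocyte genes 4 were called lower on day 4 than at steady state (median log2 fold change -3.98), and 3 were called lower than on day 1 (-1.85). Rag1 fell from 25.9, 23.9 and 17.7 CPM on day 1 to 0.71, 0.316 and 1.15 CPM on day 4 (log2 fold change -4.95 ± 0.98, edgeR adjusted p = 0.0231). Cd3e had 10.1, 8.36 and 7.48 CPM on day 1 and 3.68, 3.51 and 4.42 CPM on day 4, and Ptprc 14.99, 12.7 and 12.9 CPM and then 4.07, 4.37 and 4.54 CPM; neither was called. Erythroid genes summed to 3953 to 17165 CPM on day 1 and to 13.8 to 17.5 CPM on day 4, and 6 of 11 were called lower. Replication scores were 3.46, 3.30 and 3.34 on day 1 and 3.30, 3.20 and 3.29 on day 4, while thymocyte scores were 3.16, 3.13 and 3.0 and then 1.04, 1.06 and 1.53.

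**Figure D3:**
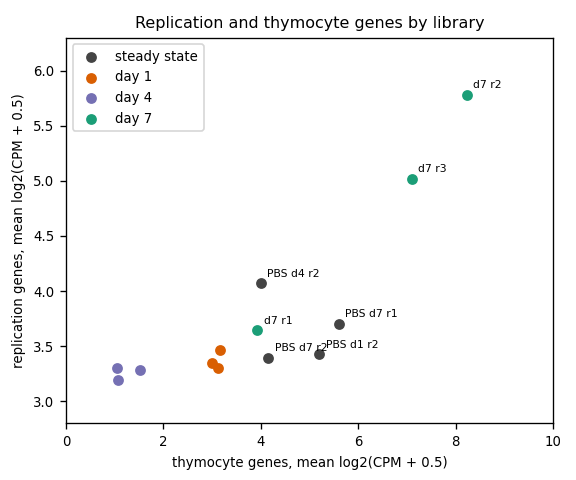
Each point is a library; the horizontal axis is the mean log2(CPM + 0.5) of 15 thymocyte genes and the vertical axis that of the 47 replication genes (the vertical axis starts at 2.8). Day-1 libraries have thymocyte scores from 3.0 to 3.16 and day-4 libraries from 1.04 to 1.53 at replication scores between 3.20 and 3.46, and replicates 2 and 3 of day 7 (thymocyte scores 8.23 and 7.10, replication scores 5.78 and 5.02) are far above all others on both axes.

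At day 7 some of the replication genes were higher than on days 1 and 4, and 25 of the 47 passed the test over neither day. Over day 4, 17 of the 47 were called higher and 0 lower, where 2.77% of all genes were called higher and 1.13% lower, and over day 1, 19 were called higher and 0 lower, where 3.68% and 4.45% of all genes were. All 47 log2 fold changes were positive in each comparison, with a median of 1.70 over day 4 (0.11 over all genes) and 1.5 over day 1 (0.05 over all genes). All 3 day-7 libraries exceeded all 3 day-4 libraries in 28 genes, against 12.2% of all genes, and all 3 day-1 libraries in 11, against 12.7% of all genes. The comparisons share the day-7 libraries and so are not independent of each other.

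These counts rested on which libraries were in the fit. The share of all genes called over days 1 and 4 was not computed for the fits that follow. Whether a change in these counts is particular to the replication genes was therefore not tested. Without replicate 1 of day 7, 36 genes were called over day 1 and 39 over day 4, and without replicate 2 of day 7 the counts were 5 and 0. Without replicate 3 of day 7 they were 8 and 5. Leaving out replicate 1, 2 or 3 of day 1 gave 6, 5 and 5 genes called over day 1, and leaving out replicate 1, 2 or 3 of day 4 gave 7, 0 and 0 over day 4. Without the 3 libraries that stood apart on days 1 and 4, no gene was called in any comparison, and the medians were 1.59 over day 1 and 1.75 over day 4. In that fit all day-7 tags open with k3 or kk and no tag of days 1 and 4 does. Tag and day therefore cannot be told apart in it. DESeq2 called 31 genes over day 1 and 32 over day 4. A fit that also included each library's thymocyte score called 0 in either comparison, with medians of 0.049 and -0.50. Thymocyte scores of day 7 overlapped those of neither day 1 nor day 4, so this fit extrapolates. The part of thymocyte RNA in the fold changes was not tested.

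**Figure D4:**
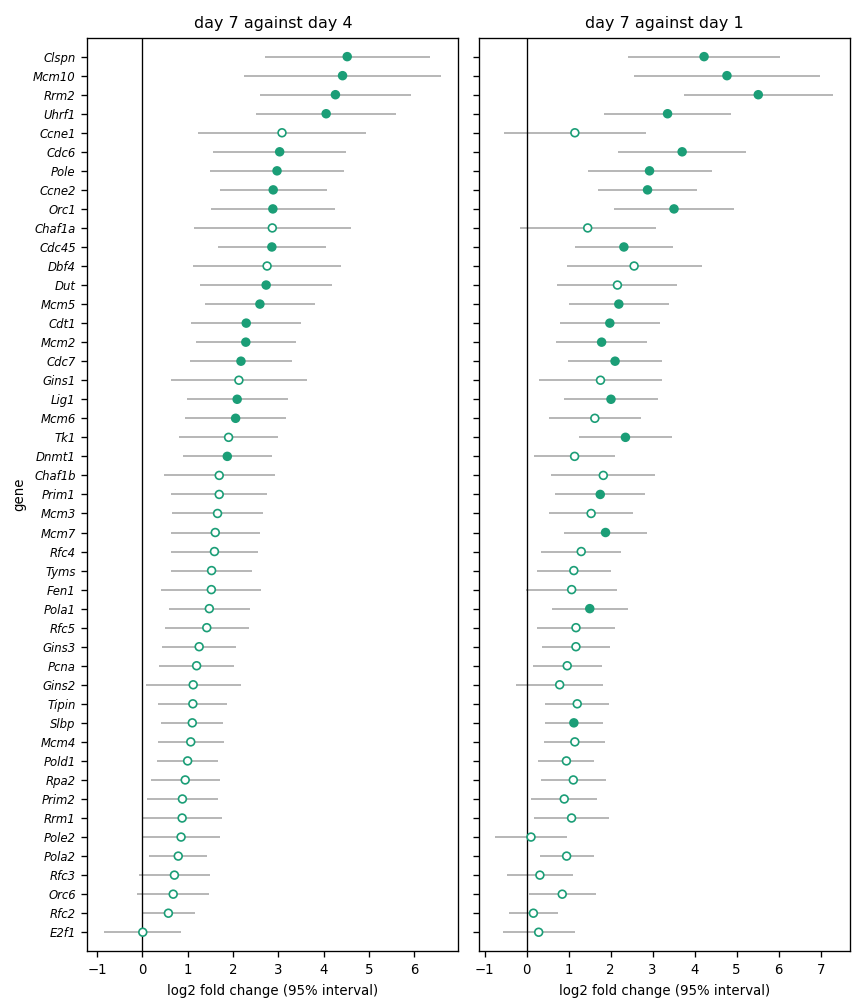
Log2 fold changes of the 47 genes at day 7 against day 4 (left) and against day 1 (right), ordered by the left panel, with 95% intervals; filled points passed an adjusted p of 0.05. All points lie right of 0, from 0.01 for E2f1 to 4.52 for Clspn against day 4.

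Among the licensing genes Orc1, Cdc6 and Cdt1 were called in each comparison, and Orc6, the abundant member by read count, in neither. Cdc6 had 3.96, 44.3 and 23.8 CPM in replicates 1 to 3 of day 7, and its log2 fold change over day 1 was 3.70 ± 0.70 (edgeR adjusted p = 0.00963). Orc1 had 1.31, 11.8 and 4.99 CPM (3.51 ± 0.66 over day 1, edgeR adjusted p = 0.0094). Orc6, the smallest subunit of the complex, had 20.7, 44.1 and 25.03 CPM on day 7 and 15.1, 21.3 and 19.5 CPM on day 4, a log2 fold change of 0.68 ± 0.37 (edgeR adjusted p = 0.353).

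All 6 MCM ring subunits had positive fold changes. Mcm2 and Mcm5 were called over both days, Mcm7 over day 1, Mcm6 over day 4, and Mcm3 and Mcm4 over neither. Mcm6 had 84.8, 322 and 231 CPM on day 7, a log2 fold change of 2.06 ± 0.52 over day 4 (edgeR adjusted p = 0.0445). Its replicate 1 was inside the steady-state range of 63.1 to 118 CPM, and replicates 2 and 3 were above it. Of the factors that activate the helicase, Mcm10, Cdc45 and Cdc7 were called over both days, while the 3 GINS subunits and Dbf4 were called over neither. Mcm10 had 2.05, 38.7 and 16.6 CPM on day 7, a log2 fold change of 4.42 ± 1.01 over day 4 (edgeR adjusted p = 0.0317). Cdc45 had 5.89, 41.9 and 20.1 CPM on day 7, 2.78, 3.14 and 3.41 CPM on day 4, 6.14, 3.9 and 3.58 CPM on day 1, and 5.9, 9.4, 6.24 and 5.42 CPM at steady state. Its day-7 libraries were all above day 4 (2.86 ± 0.55, edgeR adjusted p = 0.0175).

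Polymerase, clamp and clamp loader genes gave few calls, and Pole, the catalytic subunit of polymerase epsilon, had the largest fold change among them (log2 2.93 ± 0.68 over day 1, edgeR adjusted p = 0.0218). Of 7 polymerase and primase genes 3 were called over day 1 (Pola1, Prim1 and Pole) and 1 over day 4 (Pole), and of the 6 clamp, clamp loader and RPA genes 0 were called over either day, while 4 of the 6 had an unadjusted p under 0.05 and DESeq2 called 2 of them in each comparison. Pold1, the catalytic subunit of polymerase delta, had 47.1, 38.4, 49.0 and 40.5 CPM at steady state, 55.1, 38.5 and 46.1 CPM on day 1, 46.9, 38.7 and 49.3 CPM on day 4 and 50.01, 139 and 81.1 CPM on day 7. The first 10 of these libraries spanned 38.4 to 55.1 CPM, and replicate 1 of day 7 fell within that span. Pcna had 32.8, 44.0, 29.0 and 31.3 CPM at steady state, 29.8, 38.4 and 39.0 CPM on day 4 and 40.8, 133 and 72.0 CPM on day 7 (1.20 ± 0.38 over day 4, edgeR adjusted p = 0.103). Pole2 had 4.13, 4.29 and 5.24 CPM on day 4 and 5.37, 12.3 and 7.1 CPM on day 7, so it was higher than on day 4 in every library but differed from day 1 by 0.11 ± 0.39. Rfc2 had 36.2, 46.7, 33.6 and 37.7 CPM at steady state, 35.2, 40.3 and 41.5 CPM on day 4 and 40.8, 79.4 and 54.1 CPM on day 7, and Rfc3 9.49, 11.3 and 9.55 CPM on day 4 and 10.5, 25.2 and 13.9 CPM on day 7. Neither clamp loader gene was called (edgeR adjusted p = 0.273 and 0.323 over day 4).

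Lig1, the ligase that seals Okazaki fragments, was called over both days and Fen1 over neither. Lig1 had 9.43, 21.2, 16.8 and 13.9 CPM at steady state, 19.6, 9.43 and 12.7 CPM on day 1, 13.6, 13.4 and 12.4 CPM on day 4 and 17.3, 102 and 49.3 CPM on day 7 (2.09 ± 0.52 over day 4, edgeR adjusted p = 0.0417). Fen1 had 0.452, 0.773 and 0.815 CPM on day 4 and 0.759, 3.15 and 2.09 CPM on day 7.

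The subunits of ribonucleotide reductase again had unlike values on day 7. Rrm2 had 19.6, 349 and 179.7 CPM on day 7, log2 fold changes of 5.51 ± 0.82 over day 1 (edgeR adjusted p = 0.00282) and 4.26 ± 0.77 over day 4 (edgeR adjusted p = 0.0135). It was ranked the ninth of the 47 in level per kilobase at steady state and the first at day 7, at 65.9 CPM per kb. Rrm1 had 126, 117 and 147 CPM on day 4 and 159, 304 and 251 CPM on day 7 (0.88 ± 0.41 over day 4, edgeR adjusted p = 0.274). The other nucleotide genes were called over 1 day each, Tk1 (thymidine kinase) over day 1 and Dut (dUTPase) over day 4, or over neither, as was Tyms (thymidylate synthase).

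**Figure D5:**
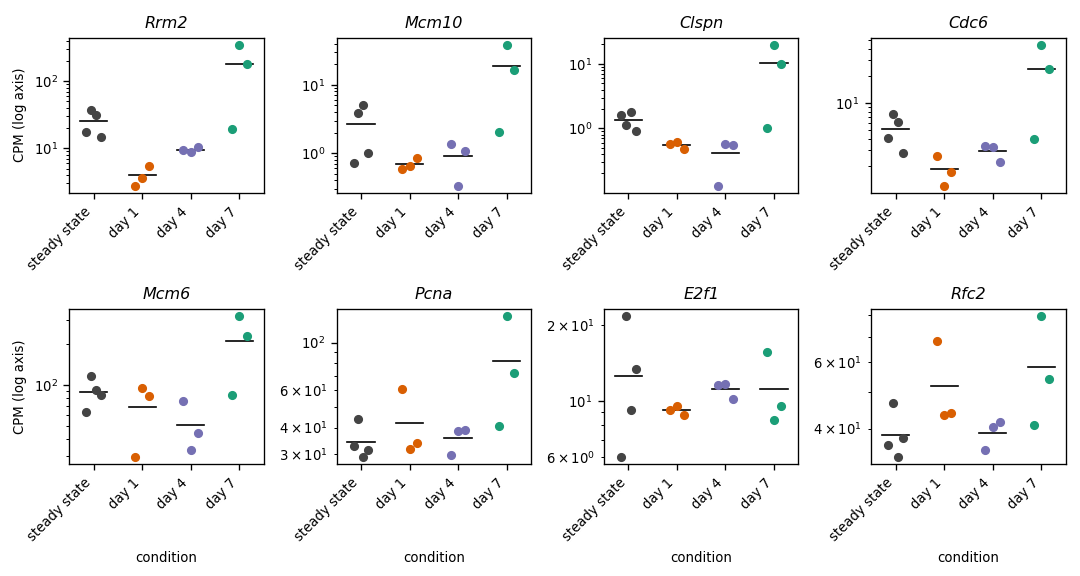
CPM of 8 replication genes on log axes, with points for libraries and lines for group means at steady state and on days 1, 4 and 7 after TBI. Rrm2, Mcm10, Clspn and Cdc6 are far higher in replicates 2 and 3 of day 7, and Mcm6 and Pcna less so. Mcm6, Pcna, Rfc2 and E2f1 overlap between days 1 and 7, and E2f1 lies between 8.4 and 15.6 CPM on day 7.

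Of the genes that copy chromatin and methylation, Uhrf1, which brings Dnmt1 to newly made DNA, was called over both days, with log2 fold changes of 3.36 ± 0.69 over day 1 (edgeR adjusted p = 0.0134) and 4.06 ± 0.72 over day 4 (edgeR adjusted p = 0.0127). Dnmt1 had 46.9, 272 and 165 CPM on day 7 (1.87 ± 0.45 over day 4, edgeR adjusted p = 0.0389), and its replicate 1 was below every steady-state library. Chaf1a had 4.12, 13.4 and 16.8 CPM on day 7, and with E2f1 it was 1 of only 2 replication genes in which replicate 3 exceeded replicate 2. Ccne1 had 2.24, 7.97 and 6.94 CPM. Neither was called over day 4 despite log2 fold changes of 2.87 ± 0.80 and 3.08 ± 0.86 (edgeR adjusted p = 0.0663 and 0.0671), with day-4 values split as described above. Of the fork checkpoint genes, Clspn had 1.6, 1.13, 1.81 and 0.92 CPM at steady state, 0.566, 0.604 and 0.482 CPM on day 1, 0.129, 0.562 and 0.555 CPM on day 4 and 1.03, 19.8 and 10.01 CPM on day 7, a log2 fold change of 4.52 ± 0.84 over day 4 (edgeR adjusted p = 0.0151). Its lowest count in a library was 2 reads. Tipin had 18.5, 24.7, 21.6 and 22.6 CPM at steady state, 33.7, 16.8 and 20.5 CPM on day 1, 23.1, 26.6 and 25.9 CPM on day 4 and 30.5, 87.3 and 45.8 CPM on day 7, and was not called over day 4 (1.11 ± 0.35, edgeR adjusted p = 0.1).

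E2f1, the transcription factor that drives entry into S phase, was the exception on day 7. It had 5.99, 21.7, 9.21 and 13.3 CPM at steady state, 9.16, 9.57 and 8.78 CPM on day 1, 11.6, 11.7 and 10.2 CPM on day 4 and 15.6, 8.4 and 9.57 CPM on day 7. Its difference between days 7 and 4 was 0.01 ± 0.39 (edgeR adjusted p = 0.993), and it was the only gene of the 47 in which replicate 1 was the highest day-7 library. Other E2F genes from the list of 40 differed, with E2f2 at 9.05, 78.0 and 45.7 CPM and the repressor E2f8 at 1.93, 37.7 and 22.02 CPM on day 7, where day 4 had 2.26, 1.7 and 2.35 CPM and 0.71, 0.65 and 0.592 CPM. Both were called over day 4, with log2 fold changes of 4.40 ± 0.69 and 4.99 ± 0.83 (edgeR adjusted p = 0.00897 and 0.0102). The G1/S cyclin Ccne2 was called over day 4 too (2.89 ± 0.55, edgeR adjusted p = 0.0161). The 13 genes whose promoter windows held E2F letters had a median log2 fold change over day 4 of 2.06, from 0.71 to 4.52, and the 26 whose windows did not, E2f1 included, a median of 1.64, from 0.01 to 4.42, so the ranges overlapped.

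Of the 40 further replication genes 17 were called higher than on day 1 and 13 higher than on day 4, with 0 lower. Among those with the lowest adjusted p over day 1 was Cdca7, a chromatin remodelling cofactor (3.99 ± 0.71, edgeR adjusted p = 0.00758). Of the mitosis genes all 18 were called higher than on day 1 (median log2 fold change 4.79) and 17 higher than on day 4 (4.16), where Cenpe, a kinetochore motor, had 6.19 ± 0.93 (edgeR adjusted p = 0.00796) and Nusap1 4.10 ± 0.67 (edgeR adjusted p = 0.01). Among the cell cycle inhibitors Cdkn1a fell from day 1 to day 7 (-1.30 ± 0.34, edgeR adjusted p = 0.0342), with 397, 216 and 209 CPM on day 7. Cdkn2d and Cdkn2c, inhibitors of Cdk4 and Cdk6, were called higher than on day 1 (1.72 ± 0.38 and 0.91 ± 0.24, edgeR adjusted p = 0.0164 and 0.0381), and Cdkn2d was also called higher than on day 4 (1.5 ± 0.37, edgeR adjusted p = 0.0433).

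Against steady state no replication gene was called at day 7, where 0.005% of all genes were called higher and 0% lower, although 46 of 47 fold changes were positive and the median was 1.32 (0.00 over all genes). An unadjusted p under 0.05 was reached by 41 of the 47, against 13.5% of all genes. DESeq2 called 26 higher, against 1.91% of all genes. Without replicate 1 of day 7 edgeR called 31, against 2.73% of all genes. Without the PBS library named for day 4 it called 1, and the share of all genes was not computed for that fit. All 3 day-7 libraries were above all 4 steady-state libraries in 6 genes (Gins3, Prim2, Pold1, Rfc3, Rfc4 and Tipin), against 2.82% of all genes. Gins3 had 4.12, 5.28, 5.51 and 5.08 CPM at steady state and 5.87, 19.7 and 11.1 CPM on day 7, so the margin by which replicate 1 exceeded the steady-state libraries was small.

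On day 7 the replication genes and the thymocyte genes ran in the same order of libraries. Replicate 2 was the highest, then replicate 3, then replicate 1, in 45 of the 47 replication genes. Replicate 1 was above the steady-state range in 6 genes, within it in 36 and below it in 5, where replicate 2 was above it in 46 and replicate 3 in 43. Replicate 2 exceeded replicate 1 by a median of 1.98 on the log2(CPM + 0.5) scale, from -0.86 (E2f1) to 4.12 (Rrm2), and replicate 3 exceeded it by 1.44. For the 15 thymocyte genes the same differences had medians of 4.43 and 3.23, and for the 18 mitosis genes 3.75 and 2.83. Rag1 had 19.96, 438 and 249 CPM in replicates 1 to 3, Cd3e 14.2, 316 and 161 CPM and Ptprc 21.6, 606 and 224 CPM, so all ran in the same order. Erythroid scores, 4.27, 6.24 and 4.81, ran in that order too, as did those of endothelial genes (6.52, 7.12 and 6.65), macrophage genes (0.91, 2.65 and 2.10), B cell genes (-0.24, 0.86 and 0.45) and neutrophil genes (-0.36, 1.25 and -0.0088). Thymic epithelial scores (5.86, 5.37 and 5.08) and fibroblast scores (11.3, 10.7 and 11.2) did not. The part of these cell types' transcripts in the day-7 values was not tested.

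At steady state the replication and thymocyte genes did not share an order of libraries. Steady-state Rag1 was 49.9, 36.4, 129.98 and 28.5 CPM, Cd3e 50.3, 17.2, 54.8 and 17.0 CPM and Ptprc 119, 24.0, 105 and 38.3 CPM, in the order of the PBS libraries named for day 1, day 4 and day 7 (replicates 1 and 2). The library named for day 4, with the highest replication score, thus had little Cd3e and Ptprc, and the replication scores in the same order were 3.43, 4.07, 3.70 and 3.39. On day 4 Rag1 was at 1.15 CPM or less while the replication scores were 3.20 to 3.30, against 3.39 in the lowest steady-state library. With 3 or 4 libraries in a condition, no correlation across libraries was computed. The column headings carry tags of unexplained meaning, which were grouped here by their opening letters. Among libraries with tags that open with k3 the replication scores were 4.07 at steady state, 3.20 and 3.29 on day 4 and 3.64 and 5.78 on day 7. Among those that open with kk they were 3.39 at steady state, 3.46 on day 1 and 5.02 on day 7, and among the rest 3.43 and 3.70 at steady state, 3.30 and 3.34 on day 1 and 3.30 on day 4. So, grouped by opening letters only, day 7 was above day 4 in the k3 libraries and above day 1 in the kk libraries. Replicate 1 of day 7 was below, and replicate 1 of day 1 above, the steady-state library of the same opening letters. All 3 day-7 tags also hold m0, which no other tag holds. That part of the tag cannot be told apart from day 7.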

How the data were processed

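CD45- thymic stroma was profiled by bulk RNA-seq in 13 libraries. Per the submitters' processing notes, the authors trimmed reads with Trimmomatic 0.38, aligned them with STAR 2.7.0e and counted them per gene with featureCounts 1.6.3 on GRCm38.p5 (GENCODE M12), and deposited raw counts; strand settings were not given in the sources used here. Column headings gave each irradiated library's day and replicate, but the 4 PBS libraries only their group. Of 53379 gene IDs, 53274 matched a GENCODE M21 symbol table.

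Genes with at least 10 counts in enough libraries (edgeR filterByExpr) were tested. edgeR 4.0.16 (TMM, quasi-likelihood, all 13 libraries in 1 fit, Benjamini-Hochberg adjustment) gave the 6 pairwise comparisons, in R 4.3.3; DESeq2 1.42.0 was an alternative. Recovery of known fold changes and their signs was checked on simulated counts. These held no libraries that stood apart, so the check does not cover calls that rest on such libraries. Other alternatives were other normalization and filters, fits on the compared groups only, a replicate block, and leaving out libraries. Thymocyte scores, erythroid scores or the opening letters of the heading tags were covariates in further fits. Totals of 15721866 to 52056896 counts (median 44078906) set the precision.

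The 47 genes, their roles and the other lists were chosen with earlier results of these data known. All 47 may be named; each library's value is given for the gene of highest mean CPM in each role, for the 3 largest and 3 smallest fold changes in day 1 against steady state, day 4 against day 1 and day 7 against day 4, and for Rag1, Cd3e and Ptprc. Of the other lists, the 2 genes with the lowest adjusted p per direction were named, and Cdkn1a. Gins3, Mcm4, Uhrf1, Ccne2 and the promoters shown were added after their values were seen.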

Additional observations from a re-analysis of the deposited data

Results flagged for a closer look

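At steady state, 51 genes (the 47 replication genes, Rag1, Cd3e, Ptprc and Cdkn1a) were each checked for 1 library lying far from the other 3, by Dixon's ratio of gap to range at its 95% critical value, and 5 exceeded it. Chance alone would mark about 1 gene in 20. In 4 of them the PBS library named for day 4 was high: Gins1 at 2.25 CPM, where the others had 1.12 to 1.16 CPM, Gins2 at 11.8 CPM (3.68 to 4.7 CPM), Tyms at 25.6 CPM (14.3 to 15.5 CPM) and Ccne1 at 5.63 CPM (1.5 to 2.13 CPM). In the other gene, Pola1, the catalytic subunit of primase-polymerase alpha, the PBS library named for day 1 was low at 11.4 CPM, where the others had 17.2 to 18.3 CPM.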

How the results depend on the processing

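In every alternative that leaves out libraries, changes the normalization or filter, or uses DESeq2, the median log2 fold change of the 47 genes at day 7 stayed positive against each other condition. Leaving out 1 library at a time gave 5 to 36 genes called higher over day 1 and medians of 0.91 to 1.86, 0 to 39 called over day 4 and medians of 0.97 to 2.10, and 0 to 31 called over steady state. Genes called higher at day 7 over day 1 were 31 with DESeq2 and 6 with only the conditions compared. They were 10 with the opening letters of the heading tag as a covariate (chosen after seeing the data). They were 1 with the erythroid score and 0 with the thymocyte score as a covariate. Over day 4 they were 32 with DESeq2, 28 without the filter, 10 with at least 10 counts in every library, and 0 with only the conditions compared or with either score. Over steady state they were 26 with DESeq2, 18 without the filter and 28 with the erythroid score. Leaving out the 3 libraries that stood apart, also chosen after seeing the data, left 0 called over either day. At day 1 against steady state DESeq2, the fit without a filter and the fit on those conditions alone each called 1 gene lower, and the erythroid and thymocyte scores as covariates gave 2 and 1 called higher. The cause of these changes was not tested, except that fits on fewer libraries have fewer residual degrees of freedom by construction. Shares of all genes called were computed only for DESeq2 and for the fit without replicate 1 of day 7, each over steady state. The other counts in this section therefore have no such share beside them.

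The replicate block could be fitted only on the 9 irradiated libraries, since the headings do not tie PBS libraries to label numbers. Same-numbered libraries of days 1 and 4 deviated in opposite directions (correlations -0.84, -0.60 and -0.57). Those of days 1 and 7 (-0.20, -0.41 and 0.18) and of days 4 and 7 (0.21, 0.27 and -0.32) were mixed in sign. Such values cannot decide a pairing, since the libraries that stood apart are among them. The numbers were not taken as a pairing. With the block 1 gene was called over day 1 and 0 over day 4, and on the same libraries with no block 14 and 11.

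Thymocyte and erythroid scores of day 4 do not overlap those of day 7, so the fits with these covariates extrapolate. With the erythroid score the median log2 fold changes were 0.91 (day 1) and 2.94 (day 4) against steady state, 1.96 for day 4 over day 1, 0.60 for day 7 over day 1 and -1.25 for day 7 over day 4. With the thymocyte score they were 1.05 for day 4 and 0.51 for day 7 against steady state, 0.57 for day 4 over day 1, 0.049 for day 7 over day 1 and -0.50 for day 7 over day 4. Called genes that turned negative for day 7 over day 4 with the erythroid score were Ccne2 (-0.17), Cdc45 (-1.22), Cdc6 (-1.49), Cdc7 (-2.90), Clspn (-1.54), Dnmt1 (-2.24), Lig1 (-1.74), Mcm10 (-0.14), Mcm2 (-1.24), Mcm5 (-1.71), Orc1 (-1.32), Pole (-1.08) and Uhrf1 (-0.25). With the thymocyte score they were Cdc45 (-0.16), Cdc6 (-0.94), Cdc7 (-1.04), Cdt1 (-0.36), Clspn (-1.10), Dnmt1 (-1.24), Lig1 (-0.50), Mcm10 (-0.73), Mcm2 (-0.83), Mcm5 (-0.76), Orc1 (-0.56), Pole (-1.53), Rrm2 (-0.56) and Uhrf1 (-0.49) over day 4, and Cdc7 (-0.080), Mcm2 (-0.33), Mcm5 (-0.090) and Pole (-0.18) over day 1. Depth limits the rarest genes, since Clspn had as few as 2 reads in a library.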
